A study of Homo sapiens with 4 samples.

Results

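The 103 genes described here lie on the far end of the long arm of chromosome 2, in bands 2q35 to 2q37. They are the protein-coding gene rows that start between 214725646 and 241768816 on chromosome 2 (GRCh38, GENCODE release 29) and reach 100 counts in at least 2 of the 4 libraries. Of 60649 gene rows in the table, 227 are protein-coding and start in that interval of 27.0 Mb, 111 of these reach the count minimum, and 8 of the 111 were left out by the rule that defines the group. That rule leaves out 9 genes by name, of which IGFBP2 was under the minimum. The members were chosen by the interval in which genes were lower together in the comparison of TINCR-HA-FLAG with empty vector reported here. Their fold changes in that comparison are therefore given as a description, with no test.

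The cells were FaDu, a long-used human cell line grown out of a hypopharyngeal squamous carcinoma, and their RNA was sequenced in bulk. In 2 libraries they overexpressed TINCR with HA and FLAG epitope tags (the TINCR-HA-FLAG libraries), and in 2 they carried an empty vector. TINCR is a transcript, first described as a long noncoding RNA, that is induced in differentiating keratinocytes. By the series' own account these are technical replicates, so the spread between libraries may be only technical and a p-value measures no more than that, and whether either line is 1 clone is not given in the sources used here. The count of TINCR itself was 1921 and 2943 with TINCR-HA-FLAG and 68 and 64 with the empty vector. Total counts were 18151424 and 22331602 in the TINCR-HA-FLAG libraries and 17069533 and 17315648 in the empty vector libraries, and mitochondrial genes took 11.4% and 8.66% of them in the TINCR-HA-FLAG libraries and 9.43% and 7.58% in the empty vector libraries. Each of 9 squamous epithelial markers, KRT5 and TP63 among them, had at least 94 counts in every library. Levels are given in CPM (counts scaled to 1000000 per library, with TMM-adjusted library sizes). The 9 summed to 7150 and 8360 CPM in the TINCR-HA-FLAG libraries and to 8300 and 9492 CPM in the empty vector libraries. The log2 fold changes, TINCR-HA-FLAG over empty vector, farthest from 0 among the 9 were those of KRT14 (-1.08), SOX2 (1.03) and KRT6A (-0.94). Of 12 markers of leukocytes, endothelium, fibroblasts and melanocytes none was at 0 in all libraries, and COL1A1 was highest with 407 to 746 counts. The summed level of the 12 was 64.9 to 66.4 CPM in the TINCR-HA-FLAG libraries and 53.4 to 55.7 CPM in the empty vector libraries.

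Genes that sit next to each other on a chromosome share no single function, but they share their copy number and often their replication timing and chromatin surroundings. Bands 2q35 to 2q37 hold housekeeping genes beside genes with narrower roles, such as the tubulin gene TUBA4A, the chemokine receptor gene ACKR3 and the SP100 family of nuclear body genes. The values below are relative RNA levels in bulk samples, in which fewer cells of a type and less RNA per cell cannot be told apart.

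As a whole, the members took a smaller part of the reads with TINCR-HA-FLAG. Their counts summed to 0.649% (95% Wilson interval 0.645% to 0.653%) and 0.689% (0.685% to 0.692%) of all counts in the TINCR-HA-FLAG libraries. In the empty vector libraries they summed to 0.829% (0.825% to 0.833%) and 0.868% (0.863% to 0.872%). Such intervals take in counting error alone, as PCR copies of a molecule were not told apart. Both TINCR-HA-FLAG libraries lay below both empty vector libraries, and the gap between the groups was wider than that between the libraries of either group. On the CPM scale the sum was 6663 ± 379 with TINCR-HA-FLAG and 8562 ± 427 with the empty vector (SD, n = 2 each), a difference of -22.2%. The 5 most abundant members, PTMA, HDLBP, SEPTIN2, GPC1 and XRCC5, made up 40.2% of the sum in the empty vector libraries. Over the other 98 members the sum was 3957 and 4174 CPM in the TINCR-HA-FLAG libraries and 5003 and 5237 CPM in the empty vector libraries, a difference of -20.6%.

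Gene by gene, 98 of the 103 members had a negative log2 fold change, beside 49.3% of all 18771 genes tested. The median was -0.34, with quartiles of -0.43 and -0.24, and the lowest and highest values were -1.03 and 0.27. Over all genes tested the median was 0.004, and over the 10419 other protein-coding genes that reach 100 counts it was -0.009, with quartiles of -0.13 and 0.12. In 82 members both TINCR-HA-FLAG libraries lay below both empty vector libraries, beside 17.9% of all genes tested, and in 1 member both lay above, beside 21.7%. Over the protein-coding genes with 100 counts on the rest of chromosome 2, the share on the lower side was 39.8%. In the other 20 the groups overlapped. In 75 members the log2 fold change lay between -0.5 and -0.2, in 7 it was below -0.5 and in 16 it was between -0.2 and 0. A value of -0.34 corresponds to a level 0.789 times that with the empty vector. The value was -0.2 or below in 82 members, beside 20.1% of all genes tested. Among protein-coding genes with 100 counts, it was so in 13.8% of all others and in 26.0% of those on the rest of chromosome 2. Standard errors of the members ran from 0.099 to 0.27. In edgeR's quasi-likelihood test over all genes with Benjamini-Hochberg adjustment, 1 member, TUBA4A, was called lower at an adjusted p under 0.05. Over all genes tested, 0.0959% were called in that direction and 0.549% in either. By edgeR or by DESeq2, 0 members were called higher, beside 0.453% of all genes called higher by edgeR. Since the same contrast chose the members, nothing is read from these counts.

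**Figure D1:**
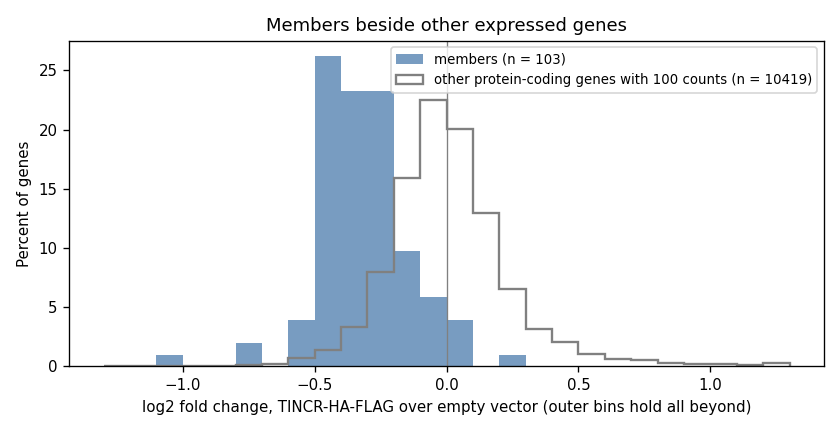
Percent of genes (vertical axis) by log2 fold change, TINCR-HA-FLAG over empty vector (horizontal axis), for the 103 members (filled) and the 10419 other protein-coding genes with 100 counts (line). The members centre on -0.34 and the other genes on -0.009.

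In each pair of libraries taken alone, most members were lower with TINCR-HA-FLAG. TINCR-HA-FLAG replicate 1 was below empty vector replicate 1 in 98 members and below empty vector replicate 2 in 90. TINCR-HA-FLAG replicate 2 was below empty vector replicate 1 in 92 members and below empty vector replicate 2 in 98. The median difference over the members lay between -0.38 and -0.27 log2 CPM in these 4 pairs, against -0.001 to 0.05 over all genes tested. Within a group the median difference between replicates was nearer to 0. Single members differed in both directions, which cancel in such a median, and some differed more between replicates than between groups. The quartiles of the members' replicate differences lay 0.285 apart in the TINCR-HA-FLAG libraries and 0.285 apart in the empty vector libraries. Replicate 2 was above replicate 1 by a median of 0.07 log2 CPM over the members in the TINCR-HA-FLAG libraries and by 0.06 in the empty vector libraries, and for the other protein-coding genes with 100 counts these medians were 0.05 and 0.04.

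The count minimum was reached in fewer than 4 libraries by 4 members, namely NHEJ1, ALPP, RAB17 and SCLY, and no member reached it in 1 group only. All 103 passed the filter on low counts of the all-gene test. Nearest inside the minimum were SCLY and NHEJ1, with log2 fold changes of -0.37 (SE 0.27) and -0.20 (SE 0.22). Nearest outside were DOCK10 and UBE2F, with -0.27 (SE 0.26) and -0.67 (SE 0.25).

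Along the chromosome, negative values were found in every 5 Mb window of the interval. BARD1, which encodes the partner of BRCA1 in DNA repair, is the first member. It had 55.2 and 56.5 CPM in the TINCR-HA-FLAG libraries and 54.6 and 63.9 CPM in the empty vector libraries, a log2 fold change of -0.08 (SE 0.11) with overlapping groups. From ARPC2 to SLC16A14, over 11.8 Mb, 40 members in a row were negative. DNAJB2 (-0.31) and IRS1 (0.18), which were left out by name and reach 100 counts, also start within this stretch. With IRS1 counted, the run would be broken. Over windows of 5 Mb counted from the first member, the medians were -0.35 (36 members), -0.34 (6 members), -0.24 (3 members), -0.32 (23 members), -0.32 (15 members) and -0.38 (20 members, from 25 Mb to the end). The running median of 11 neighbouring members stayed between -0.46, centred on FARP2 near the end, and -0.24, centred on SP110. The last member, D2HGDH, which encodes the mitochondrial D-2-hydroxyglutarate dehydrogenase, had 22.9 and 19.6 CPM in the TINCR-HA-FLAG libraries and 32.9 and 25.4 CPM in the empty vector libraries, a log2 fold change of -0.46 (SE 0.16). Beyond it, 5 protein-coding rows remain on the chromosome, and none reached 100 counts.

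**Figure D2:**
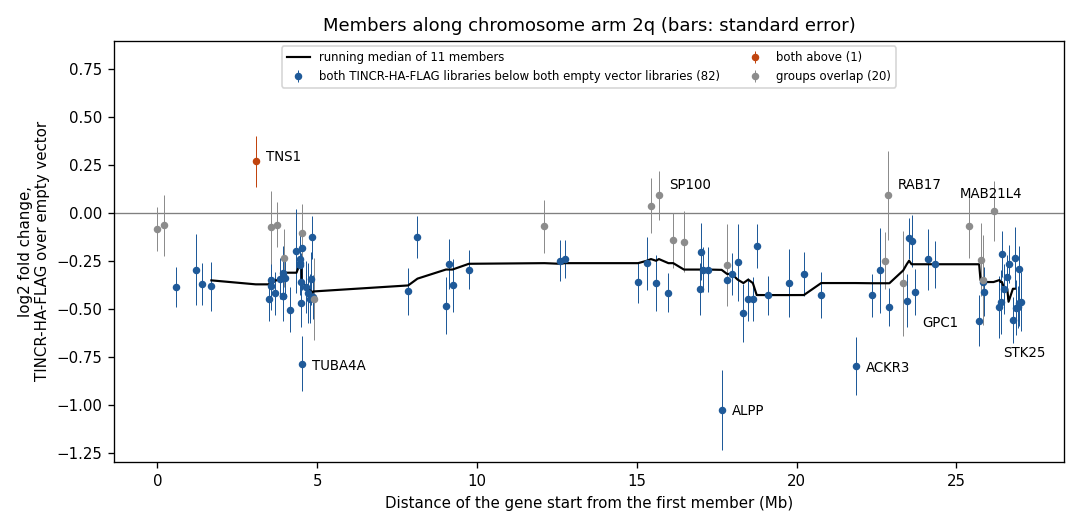
Log2 fold change, TINCR-HA-FLAG over empty vector (vertical axis, bars are standard errors), of each member by its distance from the first member in Mb (horizontal axis). Points below 0 run through the whole interval, the running median stays between -0.46 and -0.24, and ALPP, ACKR3 and TUBA4A lie lowest.

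Of the 5 genes with 100 counts in the 5 Mb just before the interval, 3 had positive log2 fold changes, with a median of 0.09. The nearest to it were SPAG16 at 0.25 (SE 0.18) and IKZF2 at 0.09 (SE 0.14). Farther back, more genes were negative. Over the 50 Mb before the interval, 114 of 137 genes were negative with a median of -0.18, and over the 50 Mb before that 65 of 80, with a median of -0.18. From 100 to 150 Mb before the interval the median was -0.09 (113 of 168 negative), and from 150 to 200 Mb before it the median was 0.02 (72 of 159 negative). The genes farthest away, more than 200 Mb before it, had a median of -0.09 (22 of 32 negative). Among the 26 windows of 5 Mb outside the interval that held at least 10 genes, the medians ran from -0.33 to 0.09, and 19 were negative. The lowest of them, with 13 genes, lay 20 to 15 Mb before the first member. No test of a difference between the interval and the rest of the chromosome is given, because the contrast chose the interval.

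**Figure D3:**
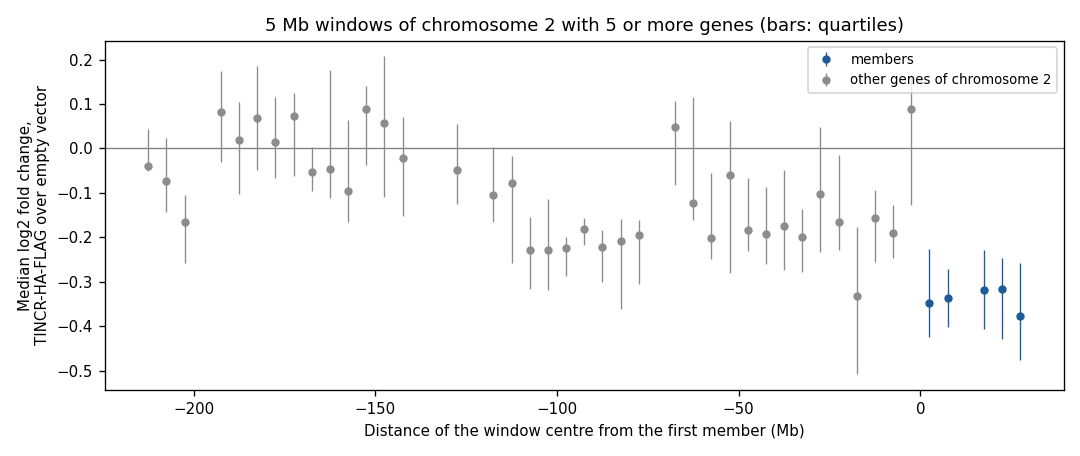
Median log2 fold change, TINCR-HA-FLAG over empty vector (vertical axis, bars are quartiles), in 5 Mb windows of chromosome 2 that hold 5 or more genes, by distance of the window centre from the first member in Mb (horizontal axis). Members lie between -0.38 and -0.32 in the 5 windows drawn, and most windows within 110 Mb before them lie below 0.

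TUBA4A (ENSG00000127824.15, 219249711 to 219278170, minus strand), which encodes an alpha-tubulin of microtubules, was the 1 member called. It had 40.2 and 50.4 CPM in the TINCR-HA-FLAG libraries and 69.8 and 86.6 CPM in the empty vector libraries. Both TINCR-HA-FLAG libraries lay below the lower empty vector library, and the log2 fold change was -0.79 (SE 0.14). In edgeR's test the adjusted p of TUBA4A was 0.047, just under the threshold of 0.05. With no filter on low counts it was 0.13, so TUBA4A was no longer called (log2 fold change -0.78). ACKR3 and ALPP, with log2 fold changes of -0.80 and -1.03, had adjusted p-values of 0.058 and 0.074 in edgeR's test. Nothing is read from these p-values, since the contrast chose the members. Other alpha-tubulin genes, which lie outside the interval, had log2 fold changes nearer to 0. TUBA1C, the most abundant of them per length, had 128 and 172 CPM in the TINCR-HA-FLAG libraries and 160 and 176 CPM in the empty vector libraries, a log2 fold change of -0.16 (SE 0.14) with overlapping groups. The log2 fold change was -0.26 (SE 0.15) for TUBA1B and 0.04 (SE 0.19) for TUBA1A, again with overlap. TUBA3D had at most 22 counts in a library, and TUBA3C, TUBA3E, TUBA8 and TUBAL3 were too low to test. Alpha-tubulin genes are similar in sequence, so reads may be shared between them.

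TUBA4A overlaps STK16, a kinase gene of the Golgi on the opposite strand, by 627 bases. STK16 had 17.4 and 21.95 CPM in the TINCR-HA-FLAG libraries and 20.5 and 21.94 CPM in the empty vector libraries, a log2 fold change of -0.10 (SE 0.15) with overlapping groups. Whether counting used strand is not given in the sources used here, and 67 of the 103 members overlap an annotated gene on the opposite strand, so some reads may belong to the partner.

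Of the 103 members, 95 have a promoter window in the RefSeq table, which spans 250 bases before to 50 bases after a gene's RefSeq start (GRCh38.p14). That start can differ from the GENCODE start used for position. The TUBA4A window lies wholly inside the GENCODE span of 219249711 to 219278170, not at its minus strand start of 219278170. Windows are shown for the genes on which the description turns. They are TUBA4A as the called member, GPC1 as the one with the lowest fold change among the 5 most abundant members, ATG9A as one of 3 autophagy genes with similar values, and SP100 and SP110 as members that were not lower. In GRCh38.p14 they are chr2:219253869-219254168 (TUBA4A, minus strand), chr2:240435413-240435712 (GPC1, plus strand), chr2:219229587-219229886 (ATG9A, minus strand), chr2:230415951-230416250 (SP100, plus strand) and chr2:230225587-230225886 (SP110, minus strand). Capitals mark, on either strand, the GC box letters GGGCGG, the CAAT box letters CCAAT, the TATA box letters TATAAA, the AP-1 letters TGANTCA and the ETS letters CCGGAAG.
TUBA4A: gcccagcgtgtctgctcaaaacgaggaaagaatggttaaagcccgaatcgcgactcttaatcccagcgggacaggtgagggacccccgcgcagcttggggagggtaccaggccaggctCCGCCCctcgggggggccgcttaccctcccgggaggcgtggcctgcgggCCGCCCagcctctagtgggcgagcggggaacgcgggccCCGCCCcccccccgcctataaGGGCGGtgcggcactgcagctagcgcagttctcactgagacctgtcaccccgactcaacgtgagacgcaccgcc
GPC1: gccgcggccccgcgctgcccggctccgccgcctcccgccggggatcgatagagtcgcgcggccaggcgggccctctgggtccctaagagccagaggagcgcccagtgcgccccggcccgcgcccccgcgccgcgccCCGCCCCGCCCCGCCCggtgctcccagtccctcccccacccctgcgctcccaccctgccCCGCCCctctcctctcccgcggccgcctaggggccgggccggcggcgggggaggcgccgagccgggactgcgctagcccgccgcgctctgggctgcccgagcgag
ATG9A: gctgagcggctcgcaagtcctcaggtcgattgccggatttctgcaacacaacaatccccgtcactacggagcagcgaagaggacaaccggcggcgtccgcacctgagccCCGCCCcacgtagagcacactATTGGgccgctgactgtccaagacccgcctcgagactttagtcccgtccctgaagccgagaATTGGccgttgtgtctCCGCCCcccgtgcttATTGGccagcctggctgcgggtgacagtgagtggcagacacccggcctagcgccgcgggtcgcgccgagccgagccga
SP100: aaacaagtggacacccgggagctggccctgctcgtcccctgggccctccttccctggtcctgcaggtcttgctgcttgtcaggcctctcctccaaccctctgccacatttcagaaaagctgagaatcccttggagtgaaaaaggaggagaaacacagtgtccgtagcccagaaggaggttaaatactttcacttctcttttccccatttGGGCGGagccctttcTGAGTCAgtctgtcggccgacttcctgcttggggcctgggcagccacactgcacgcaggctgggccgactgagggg
SP110: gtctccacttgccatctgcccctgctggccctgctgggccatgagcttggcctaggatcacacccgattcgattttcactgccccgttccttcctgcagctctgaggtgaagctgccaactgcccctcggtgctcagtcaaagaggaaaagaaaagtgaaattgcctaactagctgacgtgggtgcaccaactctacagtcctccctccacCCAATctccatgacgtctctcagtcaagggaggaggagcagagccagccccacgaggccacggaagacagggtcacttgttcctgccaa

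The windows of TUBA4A and GPC1 each hold GGGCGG, the letters of a GC box, 4 times, and that of ATG9A holds it 2 times beside 3 copies of CCAAT. The SP100 window holds 1 GGGCGG and 1 TGANTCA, and the SP110 window 1 CCAAT. With 1 window per gene, GGGCGG was in 75.8% of the 95 members, 72.0% of the 8535 other protein-coding genes with 100 counts and 44.6% of all 27305 promoters. CCAAT was in 31.6% of the members, 37.3% of the other coding genes and 35.7% of all promoters. All 8 motifs searched were read on both strands, and none holds the letters of another. TATAAA was in 4.21%, 5.38% and 11.95% of the same 3 sets, CCGGAAG in 20.0%, 21.0% and 10.7%, CACGTG in 11.6%, 10.4% and 7.43%, TGANTCA in 4.21%, 4.14% and 7.76%, GGAATG in 8.42%, 10.4% and 14.05%, and the NRF1 motif, a palindrome, in 2.1%, 2.47% and 1.36%. The median GC content was 67.7% in the members, 65.7% in the other coding genes and 58.3% in all promoters. A match is a string of letters and not a shown binding site.

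The members were grouped by role, and a gene may stand in more than 1 list. Among the 103 members as a whole, 95.1% were negative, beside 49.3% of all genes tested. Groups did not overlap, on the lower side, in 79.6% of the members, beside 17.9% of all genes tested. The counts of each list are to be read beside those shares. Whether any list differed from the other members was not tested. Among the members of the cytoskeleton and septin list, 9 of 10 were negative and 7 had groups that did not overlap on the lower side, with a median of -0.30. ARPC2, a subunit of the ARP2/3 complex that nucleates branched actin, had 192 and 211 CPM in the TINCR-HA-FLAG libraries and 259 and 291 CPM in the empty vector libraries (log2 fold change -0.45, SE 0.11). SEPTIN2, a filament-forming GTPase gene, had 427 and 445 CPM in the TINCR-HA-FLAG libraries and 529 and 569 CPM in the empty vector libraries (log2 fold change -0.33, SE 0.11). FARP2, an exchange factor gene for small GTPases, had a log2 fold change of -0.26 (SE 0.099). In these 3 genes every TINCR-HA-FLAG library was below every empty vector library. TNS1, which encodes the focal adhesion protein tensin 1, was the 1 member of all 103 with both TINCR-HA-FLAG libraries above, with 27.0 and 25.8 CPM in those and 20.3 and 23.5 CPM in the empty vector libraries (log2 fold change 0.27, SE 0.13). Leaving out replicate 1 of the empty vector brought that value to 0.13, and leaving out replicate 2 of it to 0.38.

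The 3 autophagy genes among the members had similar values. ATG4B, the protease that processes ATG8 proteins, had 57.5 and 53.5 CPM in the TINCR-HA-FLAG libraries and 83.1 and 72.8 CPM in the empty vector libraries (log2 fold change -0.49, SE 0.11). ATG9A, the lipid scramblase gene, had a log2 fold change of -0.47 (SE 0.13), and ATG16L1, part of the complex that attaches ATG8 to lipids, had -0.45 (SE 0.11). The groups did not overlap in any of the 3. They lie 22.4 Mb apart from first to last.

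Genes of ubiquitin transfer and the COP9 signalosome were negative in 11 of 11 members, with a median of -0.29, and 8 had groups that did not overlap. TRIP12, a ubiquitin ligase gene, had 283 and 281 CPM in the TINCR-HA-FLAG libraries and 357 and 368 CPM in the empty vector libraries (log2 fold change -0.36, SE 0.105). CUL3, the scaffold of a family of ubiquitin ligases, had 62.4 and 59.3 CPM in the TINCR-HA-FLAG libraries and 74.6 in both empty vector libraries (log2 fold change -0.29, SE 0.10). The deubiquitinase gene USP40 had -0.17 (SE 0.11), also without overlap. BARD1, USP37 and RHBDD1 lay closest to 0 in the list, between -0.08 and -0.06, and their groups overlapped.

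In the list of DNA repair and chromatin genes, 7 of 8 were negative and 6 did not overlap, with a median of -0.33. XRCC5, which encodes the Ku80 subunit that binds broken DNA ends, had 320.4 and 345 CPM in the TINCR-HA-FLAG libraries and 422 and 439 CPM in the empty vector libraries (log2 fold change -0.37, SE 0.11). HJURP, the chaperone gene of the centromeric histone CENP-A, had 54.8 and 56.0 CPM in the TINCR-HA-FLAG libraries and 76.2 and 72.8 CPM in the empty vector libraries (log2 fold change -0.43, SE 0.10). The phosphatase gene CTDSP1, which acts on the tail of RNA polymerase II, had -0.42 (SE 0.11).

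SP100, which is also in that list, belongs with SP110 and SP140L to a family of interferon-inducible nuclear body genes that lie 15.4 to 15.7 Mb into the interval. SP100 had 48.5 and 45.4 CPM in the TINCR-HA-FLAG libraries and 39.2 and 48.9 CPM in the empty vector libraries, a log2 fold change of 0.09 (SE 0.13). SP110 had 18.4 and 16.9 CPM in the TINCR-HA-FLAG libraries and 16.5 and 17.8 CPM in the empty vector libraries, a log2 fold change of 0.04 (SE 0.14). In both genes the groups overlapped. SP140L, between them on the chromosome, had 36.5 and 31.4 CPM in the TINCR-HA-FLAG libraries and 49.7 and 37.7 CPM in the empty vector libraries, with no overlap and a log2 fold change of -0.37 (SE 0.15). Family members are similar in sequence, so reads may be shared.

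The mitochondrial list was negative in 8 of 8 members, with a median of -0.41 and 7 without overlap. BCS1L, an assembly factor gene of respiratory complex III, had 26.8 and 30.8 CPM in the TINCR-HA-FLAG libraries and 42.1 and 35.9 CPM in the empty vector libraries (log2 fold change -0.43, SE 0.13). MFF, which recruits the fission machinery to mitochondria, had 52.3 and 58.1 CPM in the TINCR-HA-FLAG libraries and 65.6 and 65.7 CPM in the empty vector libraries (log2 fold change -0.25, SE 0.11). DTYMK, the thymidylate kinase gene, had -0.47 (SE 0.12). The list also holds GLB1L, a relative of lysosomal beta-galactosidase, at -0.18 (SE 0.22).

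For Golgi, vesicle and membrane traffic, 13 of 14 members were negative, 11 did not overlap and the median was -0.33. The 14 include COPS8, a COP9 signalosome gene, and GIGYF2, a translational repressor gene, which also stand in other lists. LRRFIP1, a nucleic acid-binding protein gene placed in this list, had 79.7 and 81.5 CPM in the TINCR-HA-FLAG libraries and 114 and 113 CPM in the empty vector libraries (log2 fold change -0.49, SE 0.099). TMBIM1, a membrane protein gene of endosomes and lysosomes, had -0.35 (SE 0.12). SH3BP4, an adaptor gene of endocytosis, had -0.32 (SE 0.11), and AGFG1, an endocytic adaptor gene outside the list, -0.24 (SE 0.10). RAB17, a small GTPase gene of epithelial traffic, was the exception with 5.97 and 6.99 CPM in the TINCR-HA-FLAG libraries and 6.95 and 5.25 CPM in the empty vector libraries (log2 fold change 0.09, SE 0.23).

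Kinases, phosphatases and their partners were negative in 11 of 11 members, with a median of -0.44 and 9 without overlap. STK25, a germinal center kinase gene of the Golgi, had 57.6 and 70.9 CPM in the TINCR-HA-FLAG libraries and 93.1 and 96.5 CPM in the empty vector libraries (log2 fold change -0.56, SE 0.12). PASK, a PAS domain kinase gene, had 37.6 and 28.0 CPM in the TINCR-HA-FLAG libraries and 51.0 and 39.2 CPM in the empty vector libraries (log2 fold change -0.46, SE 0.17). The groups did not overlap in either gene, although PASK differed more between replicates.

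The list of Wnt, Notch, hedgehog and cell surface signalling had the lowest median of the 11 lists with members, -0.53 over 4 genes, none of which overlapped. ACKR3, an atypical chemokine receptor gene that takes up CXCL12, had 13.6 and 17.3 CPM in the TINCR-HA-FLAG libraries and 25.7 and 28.1 CPM in the empty vector libraries (log2 fold change -0.80, SE 0.15). GPC1, a heparan sulfate proteoglycan gene of the cell surface, had 318 and 381 CPM in the TINCR-HA-FLAG libraries and 479 and 553 CPM in the empty vector libraries (log2 fold change -0.56, SE 0.13). Its antisense neighbour GPC1-AS1, which is no member and was picked out after its values were seen, had 12.9 and 12.4 CPM in the TINCR-HA-FLAG libraries and 12.3 and 9.20 CPM in the empty vector libraries (log2 fold change 0.24, SE 0.18). WNT10A, a secreted Wnt ligand gene, had 28.9 and 30.3 CPM in the TINCR-HA-FLAG libraries and 39.5 and 44.5 CPM in the empty vector libraries (log2 fold change -0.504, SE 0.12). PER2, a circadian clock gene that shares the list, lay nearest to 0 at -0.13 (SE 0.11). The other 9 listed genes, WNT6, IHH and CXCR2 among them, were not members.

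In the last 2 lists with members, the matrix list had COL6A3, a collagen gene, at -0.30 (SE 0.22) beside TNS1. The list named for translation, RNA binding and amino acid enzymes was negative in 8 of 8 members with a median of -0.36, and 7 did not overlap. HDLBP, which encodes the RNA-binding protein vigilin, had 589.6 and 682 CPM in the TINCR-HA-FLAG libraries and 793 and 879 CPM in the empty vector libraries (log2 fold change -0.39, SE 0.13). CNOT9, a subunit of the deadenylase complex, had -0.34 (SE 0.11), and GIGYF2, a translational repressor gene, -0.32 (SE 0.11). Not all 8 are translation genes: CAB39, an activator gene of the kinase LKB1, had -0.42 (SE 0.102), and NHEJ1, a DNA end-joining gene, had -0.20 (SE 0.22). None of the 9 listed UGT1A glucuronosyltransferase genes reached the count minimum.

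**Figure D4:**
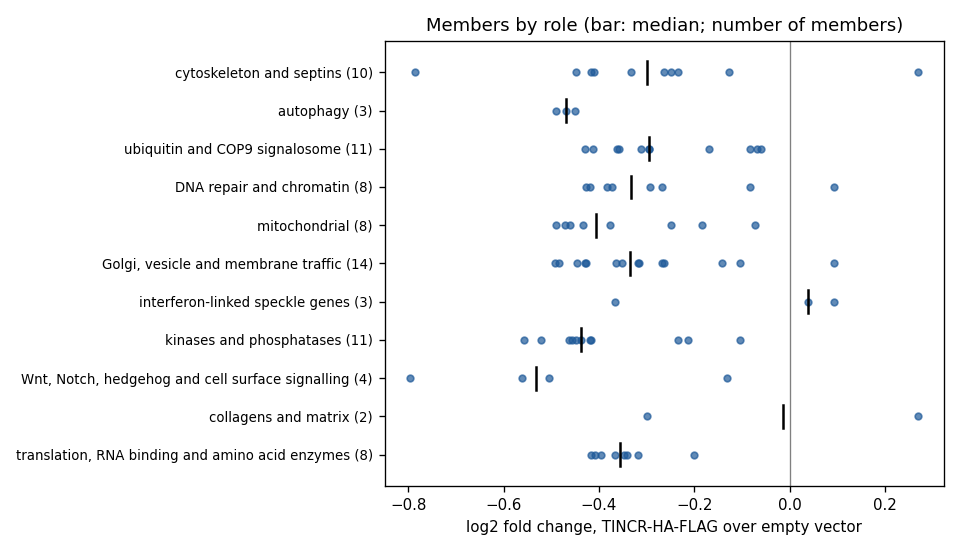
Log2 fold change, TINCR-HA-FLAG over empty vector (horizontal axis), of the members in each role list (rows, with the number of members), with the list median as a bar. Medians lie between -0.53 and -0.29 in 9 of the 11 lists, and the interferon-linked speckle genes and the matrix list lie near 0.

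Levels differed widely between members. Per kilobase of exon, PTMA was the most abundant member, at 289 CPM per kb over the 4 libraries, followed by XRCC5 at 69.9, SEPTIN2 at 66.8, GPC1 at 66.4 and HDLBP at 60.4. PTMA, which encodes the small acidic nuclear protein prothymosin alpha, had 783 and 903 CPM in the TINCR-HA-FLAG libraries and 1033 and 1186 CPM in the empty vector libraries (log2 fold change -0.40, SE 0.14). PTMA has processed pseudogenes elsewhere in the genome, so its reads may be shared. ATIC, an enzyme gene of purine synthesis, had 110.3 and 123 CPM in the TINCR-HA-FLAG libraries and 148 and 157 CPM in the empty vector libraries (log2 fold change -0.39, SE 0.11). FARSB, a subunit gene of phenylalanyl-tRNA synthetase and part of the translation list, had -0.41 (SE 0.12). ACSL3, which activates long-chain fatty acids, had 171 and 179 CPM in the TINCR-HA-FLAG libraries and 179 and 202 CPM in the empty vector libraries, a log2 fold change of -0.12 (SE 0.11).

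The member with the lowest log2 fold change was ALPP, the placental alkaline phosphatase gene. It had 4.94 and 5.72 CPM in the TINCR-HA-FLAG libraries and 9.75 and 12.1 CPM in the empty vector libraries, a log2 fold change of -1.03 (SE 0.21). These values rest on 91 and 127 counts with TINCR-HA-FLAG and on 167 and 205 counts with the empty vector, and near-identical alkaline phosphatase genes lie beside it, so they are uncertain. MAB21L4, the member nearest to 0, had 29.9 and 39.1 CPM in the TINCR-HA-FLAG libraries and 30.7 and 38.0 CPM in the empty vector libraries, a log2 fold change of 0.01 (SE 0.16). With SP100, SP110, RAB17 and TNS1 it makes up the 5 members that were not negative. Of these, SP100, SP110, RAB17 and MAB21L4 had negative values when certain single libraries were left out, the lowest being -0.10 for SP100 and -0.06 for SP110 without replicate 1 of the empty vector, -0.09 for RAB17 without replicate 2 of it, and -0.21 for MAB21L4 without TINCR-HA-FLAG replicate 2. In the same way BARD1 was at 0.04 without replicate 2 of the empty vector, and RHBDD1 at 0.07 without TINCR-HA-FLAG replicate 1.

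**Figure D5:**
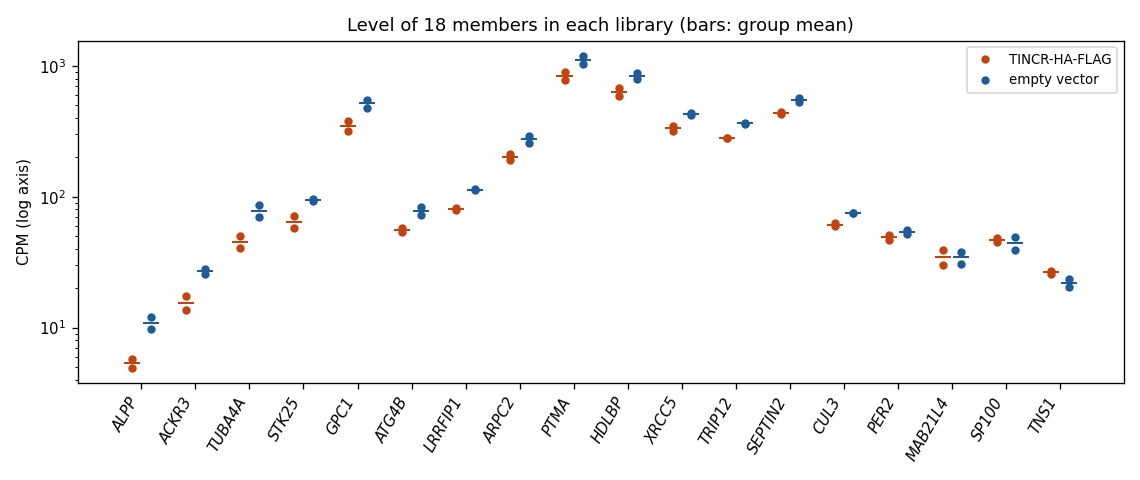
Level in CPM (vertical axis, log scale) of 18 members in each TINCR-HA-FLAG and empty vector library, with group means as bars. In 15 genes both TINCR-HA-FLAG points lie below both empty vector points, in SP100 and MAB21L4 the groups overlap, and in TNS1 both lie above.

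Members were split in 3 by their mean CPM in the empty vector libraries. That level is also the denominator of the fold change. Noise that raises it moves a member up in the split and makes its fold change more negative. Differences between the 3 parts may therefore be partly built in, and no trend with abundance is read from them. The log2 fold change had a median of -0.36 in the 35 most abundant members, -0.38 in the middle 33 and -0.26 in the 35 least abundant. Groups did not overlap, on the lower side, in 34, 27 and 21 of these, beside 17.9% of all genes tested. Over the other protein-coding genes with 100 counts that share was 21.6%. Overlap also depends on counting noise, and the median standard error was 0.11, 0.12 and 0.16 in the same order. Members on the plus strand had a median of -0.36 (59 genes) and those on the minus strand -0.30 (44 genes).

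Members on opposite strands whose starts lie within 1000 bases of each other, with or without overlap, formed 10 head-to-head pairs. Both genes of all 10 pairs had negative log2 fold changes, in a set where 95.1% of the members were negative. THAP4 and ATG4B, which overlap by 237 bases, had -0.49 (SE 0.14) and -0.49 (SE 0.11). ZNF142 and BCS1L, which overlap by 892 bases, had -0.43 (SE 0.11) and -0.43 (SE 0.13). Since the strand setting is not given, reads may be shared within such overlapping pairs. ATG9A and ANKZF1, whose starts lie 40 bases apart, had -0.47 (SE 0.13) and -0.36 (SE 0.15). The difference within a pair was largest for AAMP and PNKD, at -0.38 (SE 0.13) and -0.07 (SE 0.19), followed by USP37 and CNOT9, at -0.06 (SE 0.12) and -0.34 (SE 0.11). Its median was 0.09 over the 10 pairs, and 0.15 over all members next to each other along the chromosome.

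Other genes of the interval are given for comparison. Of the 116 protein-coding genes under the count minimum, IGFBP2 among them, 46 passed the filter on low counts, and 29 of these were negative, with a median of -0.29 and quartiles of -0.54 and 0.11. The 116 genes together had 94.1 and 86.0 CPM in the TINCR-HA-FLAG libraries and 108 and 101 CPM in the empty vector libraries. Of the 323 genes that are not protein-coding, 39 passed the filter, and 32 of these (82.1%) were negative, with a median of -0.18. Both TINCR-HA-FLAG libraries lay below both empty vector libraries in 6 of the 39 (15.4%), beside 17.9% of all genes tested, and above in 2. In the 3 of them that reach 100 counts the median was -0.07, and 2 were negative. Among the 8 genes left out by name that reach the minimum, NCL (-0.46), PSMD1 (-0.41), RPL37A (-0.34), NDUFA10 (-0.34), DNAJB2 (-0.31) and FN1 (-0.14) had negative log2 fold changes. IRS1 (0.18) and IGFBP5 (2.68) had positive ones.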

How the data were processed

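Raw read counts per gene, a whole number for each gene and library, were deposited by the authors. Per the submitters' processing notes, GRCh38 was the build and the tools included STAR 2.7.9a, DESeq2 1.32.0 and bcl2fastq 2.20.0.422, with no roles stated. How reads were counted, with which annotation release and strand setting, is not given in the sources used here. Of the table's columns, the 4 libraries described here were used and 12 other library columns were not.

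Positions came from GENCODE release 29, which matched 58337 of 60649 gene rows, and symbols were found for 60463. The members, the role lists and the rule for naming genes were chosen with earlier results of these data known. Genes were named by that rule: TUBA4A, the members at the ends, the 3 most abundant members in each 5 Mb window and of each role list, the 5 lowest and 5 highest fold changes, and the genes nearest the count minimum and the interval. STK16, GLB1L, USP37, GPC1-AS1 and the head-to-head pairs were named beyond it, for their place or after their values were seen.

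All genes that passed edgeR's filterByExpr (18771) were fitted together with edgeR 4.0.16 in R 4.3.3 (TMM library sizes, robust quasi-likelihood test, Benjamini-Hochberg adjustment, threshold 0.05, 2 residual degrees of freedom). Fold changes are TINCR-HA-FLAG over empty vector, and a standard error is the log2 fold change divided by the square root of F. The code was tested on simulated data. Alternatives were DESeq2 1.42.0, other library sizes, other filters, a replicate block, leaving out each library, and other count minimums for members.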

Additional observations from a re-analysis of the deposited data

How the results depend on the processing

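Against 103 genes called by edgeR in all, DESeq2 called 190, the fit with no filter beyond 1 count called 53, and leaving out 1 library gave 124 to 386. Of the members, 1 was called in the reported fit, 8 with DESeq2, 2 with library totals in place of TMM, 2 with the left-out genes put back in (the other is IGFBP5, called higher), and 2 to 16 with 1 library left out (leaving out TINCR-HA-FLAG replicate 1 gave 4, its replicate 2 gave 16, replicate 1 of the empty vector gave 5 and replicate 2 of it gave 2). With no filter edgeR called 0 members, so TUBA4A was not called. With the replicate block the counts were 2633 genes and 65 members. The labels give the replicate numbers no meaning and there are only 2 pairs, so the libraries were not treated as paired; deviations of same-numbered libraries had a correlation of 0.37 over all genes tested and 0.62 over the members. The members' median log2 fold change lay between -0.36 and -0.30 in every alternative run, and 89 members were negative in all 11 alternatives that keep the same members. The cause of these differences in calls was not tested. Among genes named by the rule, values moved by over 1.5 times when 1 library was left out include those of ACSL3 (-0.25 and -0.03 without replicates 1 and 2 of the empty vector), USP40 (-0.06 without TINCR-HA-FLAG replicate 2) and SP140L (-0.20 without replicate 1 of the empty vector).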
